A study of Mus musculus with 38 samples.

Results

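Fasting-induced torpor can be kept from a mouse in more than one way, and the promoter activity of soleus muscle was compared here between a pair of these. The Dep mice were torpor-deprived, meaning that an experimenter followed oxygen consumption from ZT-17 on day 2 and gently touched the animal whenever it began to fall, until tissue was taken at ZT-22. The HiT mice were kept at an ambient temperature (TA) of 32 °C throughout the recording, at which fasting was not to bring on torpor. Both groups had their food removed at ZT-0 of day 2, so both had fasted on day 2 when the muscle was taken. The study reports that no HiT mouse entered torpor, with oxygen consumption below that of fasted mice left alone. For Dep mice it reports oxygen consumption at sampling like that of fasted mice not in torpor at the time. By its account such mice usually start to enter torpor before ZT-17, so earlier torpor in Dep mice is not excluded. The comparison uses 8 of the 38 libraries, 4 Dep and 4 HiT, each from 1 male C57BL/6J mouse of about 8 weeks, and 10776 of the 10819 promoter clusters in the table had at least 1 tag. All mice carried a temperature sensor implanted in the abdomen. The TA of the Dep mice and the hour at which HiT mice were sampled are not given separately in the sources used here. The groups differ in touching and in the 32 °C that is stated for HiT mice only. They may also differ in earlier torpor and in oxygen consumption. The parts of a difference that belong to each of these cannot be told apart. All 8 libraries belong to the first run of 28, whose other groups serve as reference points: Pre (fed, day 1), Mid (fasted without either intervention, day 2, of which the study describes some as not torpid when sampled), Post (refed, day 3) and Fed (not fasted, day 2). The study describes the Mid and the Fed mice as kept at a low TA. HiT thus differs from Mid in TA, and from Fed in TA and in food. Contrasts of HiT with Pre can likewise hold warmth as well as fasting. On whether HiT and Fed mice had food, the labels and the study's methods differ, and the methods were followed.

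The soleus is a postural muscle of the lower leg that is built largely of slow, oxidative fibers. During a fast, muscle turns from glucose to fatty acids and breaks down part of its protein through ubiquitin ligases and autophagy, programs driven by FOXO, PPAR and glucocorticoid signaling. In the cool, a mouse also spends energy on heat, part of it in muscle, whereas near thermoneutrality this demand largely disappears. Activity was read by nAnT-iCAGE, which captures the capped 5′ ends of RNA without amplification, so that each tag marks the position at which transcription of 1 RNA began. Levels are given as CPM, the tags of a promoter per 1000000 tags of the library after TMM scaling, and fold changes as log2 of Dep over HiT with their SE.

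The sequences of the promoters with the largest differences are shown because these promoters carry the comparison. Each is the stretch of RefSeq's promoter window (GRCm38.p6) that ends at the CAGE peak, that is, at the base where most transcripts started, and runs 5′ to 3′ on the strand of the gene. Capitals mark letters of the motifs searched, on either strand: the TATA box TATAAA, the cyclic AMP response element TGACGTCA and its first letters TGACG, the E-box CACGTG, the AP-1 site TGANTCA and the heat shock element GAANNTTC. Higher in Dep were *Myh4* (chr11:67237562-67237812, plus strand) and the upstream promoter of *Ppargc1a* (chr5:51567727-51567975, minus strand), and lower in Dep were *Mybph* (chr1:134193198-134193437, plus strand) and *Tnc* (chr4:64046934-64047186, minus strand):
Myh4: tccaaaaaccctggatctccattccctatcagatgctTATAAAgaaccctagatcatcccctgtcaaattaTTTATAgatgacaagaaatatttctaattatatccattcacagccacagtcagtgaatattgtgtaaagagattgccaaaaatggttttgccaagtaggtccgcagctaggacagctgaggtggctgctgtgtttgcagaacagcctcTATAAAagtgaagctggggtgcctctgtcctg
Ppargc1a: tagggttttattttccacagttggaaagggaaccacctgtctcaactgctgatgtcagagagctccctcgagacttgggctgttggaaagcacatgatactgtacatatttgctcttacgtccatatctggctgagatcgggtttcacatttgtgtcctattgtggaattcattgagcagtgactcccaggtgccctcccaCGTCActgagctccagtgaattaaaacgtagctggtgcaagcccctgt
Mybph: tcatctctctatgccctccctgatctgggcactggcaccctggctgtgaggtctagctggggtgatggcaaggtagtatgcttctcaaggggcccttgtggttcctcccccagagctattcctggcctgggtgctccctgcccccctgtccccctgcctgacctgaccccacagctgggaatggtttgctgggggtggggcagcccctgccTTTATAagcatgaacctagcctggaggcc
Tnc: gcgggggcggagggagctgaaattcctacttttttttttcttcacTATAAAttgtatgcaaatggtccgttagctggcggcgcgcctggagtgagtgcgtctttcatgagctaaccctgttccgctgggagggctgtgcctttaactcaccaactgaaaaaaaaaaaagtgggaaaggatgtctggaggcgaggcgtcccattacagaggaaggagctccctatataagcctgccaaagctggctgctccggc
The TATA box letters began 31 bases before the peak of *Myh4*, with further copies at 213 and 179 bases, the last read on the other strand. In the *Mybph* window they lay 28 bases before the peak, also on the other strand, and in that of *Tnc* 207 bases before it. Only the exact letters were searched, so the similar stretch tatataa, closer to the peak in the *Tnc* window, is not marked. In the *Ppargc1a* window the letters TGACG lay 47 bases before the peak, read on the other strand. *Lrch1* and *Arg1*, which also rank among the first 3 in their directions, are named only.

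The 4 Dep libraries had between 23175690 and 28688487 tags in clusters and the 4 HiT libraries between 28416006 and 30003804. The 10 strongest clusters took 18.8 to 29.8% of the tags in Dep and 16.7 to 40.3% in HiT, where HiT 4 was the highest, and TMM factors spanned 0.797 to 1.09 in Dep and 0.679 to 1.18 in HiT. All 6 skeletal muscle markers were present, with summed levels of 17600 to 21500 CPM in Dep and 17400 to 19700 CPM in HiT, and 8 of the 9 slow fiber markers were in the table. The library Dep 1 stood apart. The neutrophil granule gene *Camp* had 60.5 CPM in Dep 1 and 0 in the other Dep libraries, *Ngp* had 25.6 CPM there against 0 in the other Dep and all HiT libraries, and the 5 neutrophil markers in the table summed to 153 CPM in Dep 1 against 3.84 to 3.86 CPM in Dep 2 to 4 and 5.08 to 10.6 CPM in HiT. Of these 5 markers 4 passed the test as higher in Dep with Dep 1 and 0 without it, when *Lcn2* passed as lower. *Slc4a1*, the anion exchanger of red cells, had 16.8 CPM in Dep 1 and 0.459 to 0.606 CPM in Dep 2 to 4, and its call also ended without Dep 1 (FDR 0.856). These are whole-muscle libraries, so fewer cells of a type and less RNA per cell cannot be told apart. Results that rest on Dep 1 are given with and without it.

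Dep and HiT libraries lay apart. The mean distance between a Dep and a HiT library, taken as the typical log2 difference of the 500 most different promoters of each pair, was 2.50, against 1.79 within the groups, a difference of 0.709 (one-sided exact permutation test over the 70 divisions of the 8 libraries, p = 0.0286, the smallest that this design allows). Mid libraries were about as far from Dep libraries (1.84) as Dep libraries were from each other (1.82). HiT libraries were 2.73 from Mid, 2.72 from Pre and 3.35 from Fed, with 1.76 among themselves, and Dep libraries were 2.23 from Pre and 2.83 from Fed.

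**Figure D1:**
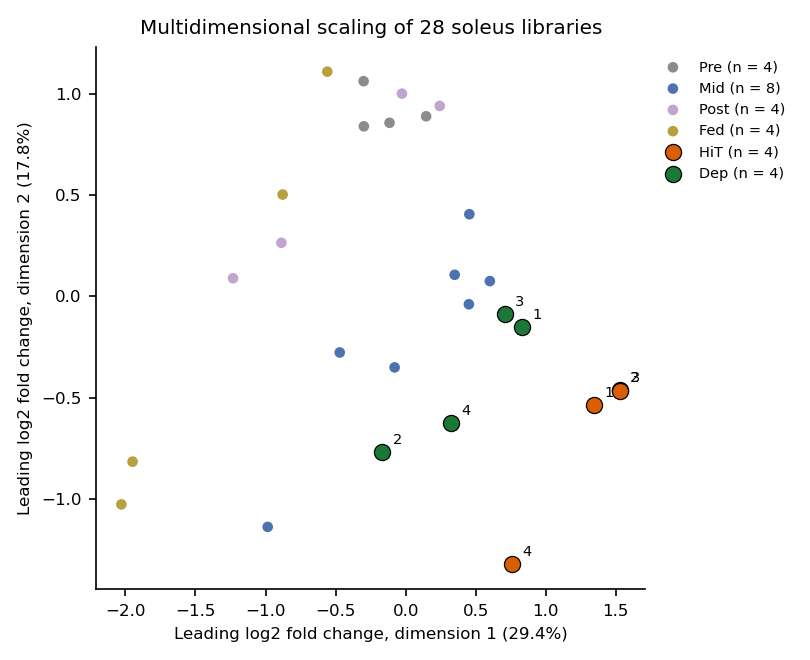
Multidimensional scaling of the 28 libraries of the first run by leading log2 fold change, in which each symbol is 1 library and the axes are the first (29.4%) and the second (17.8%) dimension, in log2 units. HiT 1 to 3 lie between 1.34 and 1.53 on the first dimension, HiT 2 and HiT 3 almost on the same spot, the Dep libraries between -0.169 and 0.833 among the Mid libraries, and HiT 4 at 0.760.

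By the quasi-likelihood test of edgeR, at a Benjamini-Hochberg adjusted p (FDR) below 0.05, 1213 promoters were higher in Dep than in HiT, which is 11.3% of those tested, and 1648 were lower, which is 15.3%. Counts of called members of the gene lists below stand against these shares. The lists take the strongest promoter of each gene and were chosen with earlier results of these data known, so their shares are a description. An unadjusted p below 0.05 was reached by 3979. The median log2 fold change over all promoters was -0.01. The promoters higher in Dep belonged to 1011 genes and had mostly small differences, with a median of 0.47 on the log2 scale and 128 above 1. The lower ones belonged to 1566 genes, and 355 of them, 21.5%, exceeded 1. The 4 Dep and the 4 HiT libraries did not overlap for 970 of the higher and 1268 of the lower promoters. Over all promoters tested, every Dep library was above every HiT library for 11.8% and below for 14.2%. When each library was left out in turn, 765 of the higher and 1004 of the lower promoters passed in all 8 fits, and 1026 and 1419 of them still passed without Dep 1. Scaling by library size alone left 397 higher and 711 lower.

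**Figure D2:**
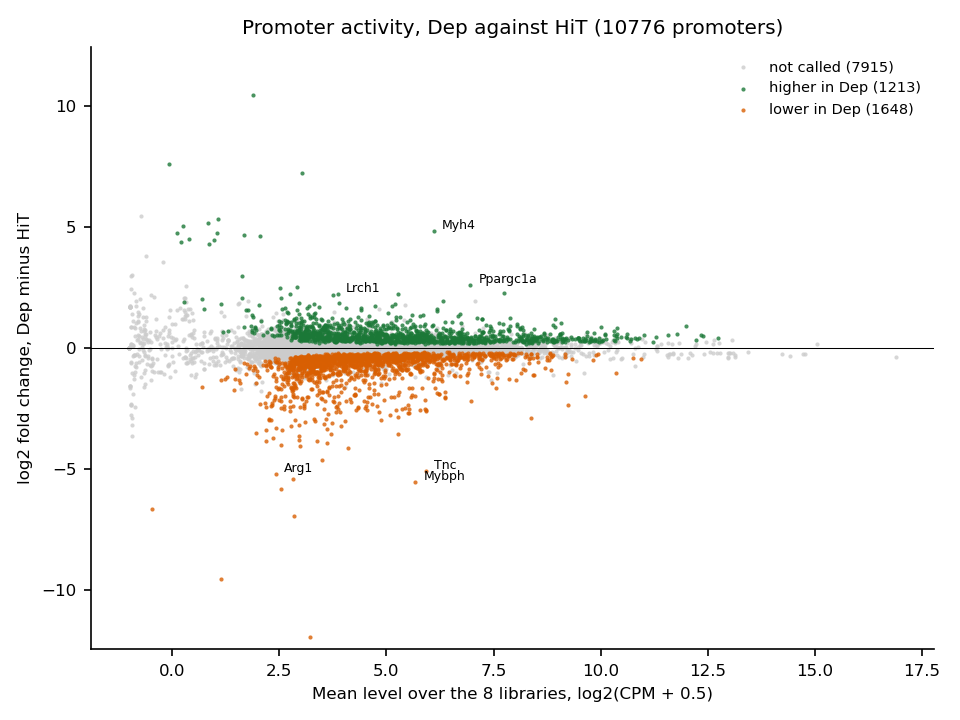
Log2 fold change (Dep minus HiT, vertical) of each of the 10776 promoters against its mean level over the 8 libraries, as log2(CPM + 0.5) (horizontal), with the 1213 promoters higher in Dep in green, the 1648 lower in orange, and the first 3 genes in each direction named. Of the green points above 5, those of *Camp* and *Ngp* rest on Dep 1 and the others are clusters of *Myh4*, and the lowest orange point is a cluster between genes counted almost only in HiT 1.

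The groups outside the comparison show on which side a difference lay. At the promoters lower in Dep, HiT had the highest mean of the 6 groups in 1316 of 1648 (79.9%), and Dep had the lowest in 525 (31.9%). At those higher in Dep, HiT was the lowest in 688 of 1213 (56.7%) and Dep the highest in 562 (46.3%). Over all promoters HiT was the highest in 24.6% and the lowest in 19.5%, but promoters chosen for a difference between Dep and HiT place these groups at the ends more often by that choice. The Mid mean, which took no part in the choice, was nearer to Dep than to HiT in 1043 of the higher promoters (86.0%) and in 1515 of the lower (91.9%). For the fed Pre mice these counts were 628 (51.8%) and 1123 (68.1%). Both contrasts with Pre share libraries with the one between Dep and HiT, so their counts stand side by side only: 2783 promoters (25.8%) passed from Pre to Dep and 3604 (33.4%) from Pre to HiT, whereas 219 (2.03%) passed between Dep and Mid, 125 without Dep 1. The division of these counts by direction depended on scaling. From Pre to Dep 1479 were higher and 1304 lower after TMM, but 365 and 1079 with library size alone and 1171 and 1841 with upper-quartile scaling. From Pre to HiT they were 1997 and 1607, 584 and 1390, and 1508 and 2139. With library size alone the median over all promoters was -0.18 from Pre to Dep (0 after TMM), -0.13 from Pre to HiT (0.04) and -0.1 between Dep and Mid (0), whereas it stayed at -0.01 between Dep and HiT. Counts against Pre are therefore relative to these medians. Counts of list members against Pre below stand against the totals after TMM, given above for all 10776 promoters.

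**Figure D3:**
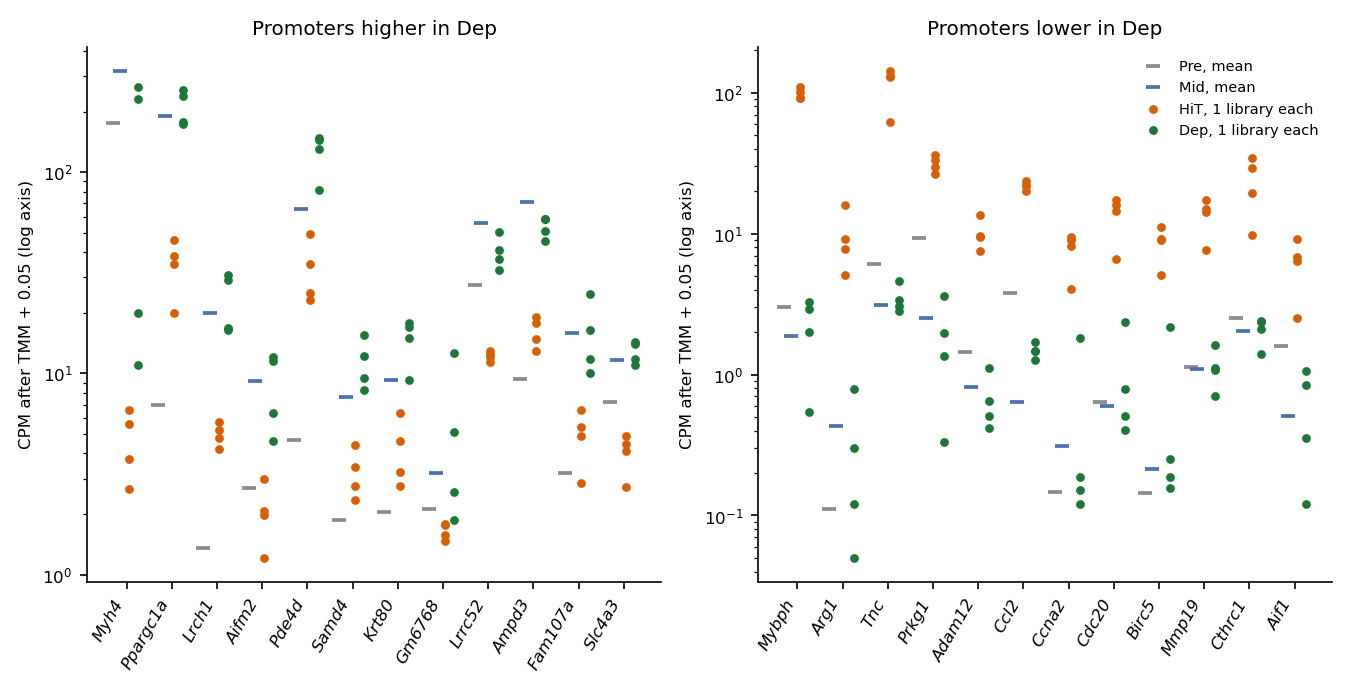
Levels in CPM after TMM, plus 0.05, on a log axis, for the 12 promoters with the largest differences in each direction, with 1 point per Dep (green) or HiT (orange) library and bars at the Pre and Mid means. By the rule for naming them the Dep and HiT points do not overlap; the Mid mean lies with Dep for *Ppargc1a* (190 CPM) and *Ampd3* (70.9 CPM), and the Pre mean lies near Dep for *Mybph* (2.95 CPM) and *Tnc* (6.03 CPM).

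Among annotated promoters of at least 5 CPM whose groups did not overlap, the largest difference toward Dep was that of *Myh4*, the myosin heavy chain of fast glycolytic fibers (chr11:67237658-67237995). Its promoter had 231, 265, 19.9 and 11 CPM in Dep 1 to 4 and 5.53, 6.51, 2.62 and 3.72 CPM in HiT 1 to 4. All Dep libraries were above all HiT libraries, but Dep 1 and Dep 2 were more than 10 times Dep 3 and Dep 4 in level (log2 fold change 4.83 ± 1.45, FDR 0.0145, and 0.0317 without Dep 1). The labels mark these high libraries with a suffix whose meaning is not given and which Dep 3, Dep 4 and the HiT libraries lack, and for each mouse the study used either 1 or both soleus muscles. Some Pre, Mid and Post libraries carry the suffix too, and its part in the *Myh4* levels was not tested. The promoter also varied widely in the other groups, with 175 ± 192 CPM (SD, n = 4) in Pre and 672 ± 699 CPM (n = 4) in Fed. It had 317 ± 345 CPM (n = 8) in Mid and 75.3 ± 81.6 CPM (n = 4) in Post. The other adult myosin heavy chains differed less. *Myh1* (fast IIx) had 944 to 1260 CPM in Dep and 719 to 1060 CPM in HiT (0.21 ± 0.17, FDR 0.399), and *Myh7* (slow) had 881 to 1450 and 852 to 1070 CPM (0.23 ± 0.14, FDR 0.247). *Myh2* (fast oxidative IIa) had 888, 672, 678 and 796 CPM in Dep and 942, 1250, 971 and 1060 CPM in HiT, and was lower in every Dep library (-0.48 ± 0.13, FDR 0.00714). The 9 fast glycolytic markers summed to 20200 to 25200 CPM in Dep and 18500 to 21100 CPM in HiT, and *Mylpf* was the only other one to pass, as lower in Dep, though not without Dep 3, Dep 4 or HiT 2, and 3 were higher without HiT 3. The part of fiber composition in the *Myh4* difference was not tested.

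*Ppargc1a* encodes PGC-1α, a coactivator of mitochondrial and oxidative genes, and has an upstream promoter known to answer to exercise and cyclic AMP. That promoter (chr5:51567615-51567874) had 177, 174, 238 and 257 CPM in Dep 1 to 4, and 20, 38.3, 45.8 and 34.8 CPM in HiT 1 to 4. The groups were far apart, a 6.11-fold difference (log2 2.61 ± 0.62, FDR 0.00247). In fed Pre mice it had a mean of 6.92 CPM and in Mid mice 190 CPM, so HiT lay between (log2 over Pre 2.32 for HiT, FDR 0.006, and 4.93 for Dep, FDR 9.8e-06). The second promoter of the gene, downstream (chr5:51553735-51554071), had 30.4 to 43.2 CPM in Dep, close to the Pre mean of 41.8 CPM, and 17.9 to 22.8 CPM in HiT (0.82 ± 0.16, FDR 0.000536). Dep and Pre thus had like levels at this promoter and HiT the lowest.

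Of 14 regulators around PGC-1, ERR and PPAR, 4 were higher in Dep and 0 lower (median 0.21, and 0.34 without Dep 4 or 0.32 without HiT 1). *Ppara*, the fatty acid receptor that switches on oxidation genes, had 61.3, 65.5, 88.6 and 95 CPM in Dep and 28.3, 32, 31.9 and 32.5 CPM in HiT (1.32 ± 0.14, FDR 3.32e-07). The HiT mice had kept the fed level of 27.6 CPM. *Perm1*, a muscle target and partner of PGC-1, had 75.8 to 104 CPM in Dep and 37.4 to 55.0 CPM in HiT (0.93), with a Pre mean of 74.1 CPM. *Lpin1*, a phosphatidate phosphatase and coactivator, had 21.3 to 43.1 CPM in Dep and 12.9 to 18.3 CPM in HiT (1.05 ± 0.20, FDR 0.000258).

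Nuclear genes of the respiratory chain and ATP synthase were higher in Dep for 50 of 83 members and lower for 0, with small differences (median 0.30, highest 0.63). This is 60.2% of the members, against 11.3% of all promoters, and 33 members were higher without Dep 4. All promoters had a median level of 17.7 CPM, far below the members named next, so these shares stand side by side only. The ATP synthase subunit *Atp5a1* had 3680, 3580, 3180 and 3870 CPM in Dep and 2430, 2190, 2770 and 2500 CPM in HiT (0.54 ± 0.08, FDR 3.38e-05). *Cox5a* had 1440 to 1770 and 1060 to 1170 CPM, and *Cycs*, cytochrome c, had 464 to 551 and 297 to 372 CPM. The direction was the same with library size alone, at a median of 0.30, but only 3 members then passed. Against the fed Pre mice the list had 0 higher and 2 lower in Dep (median -0.07) and 0 higher and 62 lower in HiT (median -0.38), the latter 61 with library size alone and 70 with upper-quartile scaling. Myoglobin (*Mb*), the oxygen store of red muscle, also had its levels apart, with 3820 to 4610 CPM in Dep and 2630 to 2920 CPM in HiT (0.59 ± 0.13, FDR 0.000948), and *Slc25a4*, the ADP/ATP carrier of mitochondria, had 5270 to 7060 and 3590 to 5720 CPM (0.52).

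Genes of fatty acid uptake and oxidation passed as higher for 14 of 31 members and as lower for 1 (median 0.30). *Fabp3*, the fatty acid-binding protein of oxidative muscle, had 4370, 6310, 4930 and 5830 CPM in Dep and 2860, 2180, 3510 and 2840 CPM in HiT (0.91 ± 0.18, FDR 0.000521). *Acadvl*, which takes the first step on long chains, had 545 to 679 and 362 to 485 CPM (0.56), *Cd36*, the uptake receptor, 367 to 408 and 227 to 307 CPM (0.49), and the electron carrier *Etfa* 712 to 807 and 537 to 616 CPM (0.37). The member in the other direction was the thioesterase *Acot1*, with 16.5 to 24.3 CPM in Dep, 32.3 to 57.4 CPM in HiT and 2.48 CPM in Pre (-0.97 ± 0.29, FDR 0.0127), whose call ended without Dep 4 or HiT 1. Against Pre, 20 members were higher and 0 lower in Dep, and 13 were higher and 3 lower in HiT. Of all promoters 25.8% passed between Pre and Dep and 33.4% between Pre and HiT, both directions together. With library size alone 2 members passed between Dep and HiT, both higher.

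The uncoupling protein gene *Ucp3*, a PPAR target, did not follow that list. It had 65.4, 65.0, 68.8 and 59.1 CPM in Dep and 65.5, 59.9, 55.0 and 88.1 CPM in HiT (-0.05 ± 0.26, FDR 0.912), against a Pre mean of 12 CPM. Its rise over Pre passed in both groups, by 2.43 in Dep (FDR 7.58e-07) and 2.49 in HiT (FDR 3.34e-07).

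In glucose uptake, glycolysis and glycogen, 10 of 29 members were higher and 2 lower (median 0.28), 1 of the latter in 5 of the 8 fits without a library. *Hk2*, the hexokinase that traps glucose, had 276, 233, 259 and 298 CPM in Dep and 115, 147, 135 and 122 CPM in HiT (1.04 ± 0.13, FDR 1.12e-06), with 195 CPM in Pre. *Ppp1r3c*, which targets a phosphatase to glycogen, had 117 to 189 and 45.5 to 69.6 CPM (1.31 ± 0.20, FDR 2.02e-05), both below the 249 CPM of Pre. *Ldhb* and *Gpi1* were higher by 0.59 and 0.39, and *Pdp1*, a pyruvate dehydrogenase phosphatase, was lower (-0.68 ± 0.16, FDR 0.00297). In the synthesis of fatty acids 2 of 15 members were higher and 1 lower, and none of these held in all fits that left out a library. The shares, 13.3 and 6.67%, were near or below those of all promoters, 11.3 and 15.3%. *Scd1*, the stearoyl-CoA desaturase, had 900 CPM in Dep 3 and 96.5 to 259 CPM in the other Dep libraries, against 44.9 to 128 CPM in HiT (2.28 ± 0.83, FDR 0.0427), and without Dep 3 its FDR was 0.286. Dep 3 also had the highest summed adipocyte markers, 1550 CPM against 191 to 773 CPM in the other 7 libraries, and their part in the *Scd1* value was not tested. Against Pre this list had 12 lower in Dep and 10 lower in HiT, with 1 higher in each.

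Cholesterol synthesis and uptake had 4 of 13 members lower in Dep, 2 without HiT 1, and 0 higher (median -0.37, and -0.21 without Dep 3 or HiT 4 and -0.23 without Dep 4). *Srebf2*, the factor that drives this pathway, had 9.62 to 11.8 and 12 to 18.3 CPM (-0.59 ± 0.13, FDR 0.00167).

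FOXO factors, atrophy ligases and autophagy genes were higher in Dep for 13 of 27 members and lower for 0 (median 0.38). *Trim63*, the ubiquitin ligase MuRF1 that marks muscle proteins for breakdown, had 678, 418, 1010 and 627 CPM in Dep and 382, 241, 283 and 293 CPM in HiT (1.19 ± 0.27, FDR 0.00157). HiT was itself above the Pre mean of 153 CPM (0.97). *Fbxo30*, another atrophy ligase, had 36.0 to 48.8 and 21.2 to 26.6 CPM (0.81 ± 0.16, FDR 0.000541), *Bnip3*, a mitophagy receptor, had 937 to 1020 and 486 to 810 CPM (0.65), and *Trim54*, a relative of MuRF1 at the sarcomere, had 309 to 370 and 213 to 257 CPM (0.56). Against Pre, 17 members were higher and 2 lower in Dep, and 8 were higher and 2 lower in HiT. Among proteasome subunits 8 of 35 were higher and 3 lower (median 0.09), but 4 were higher without Dep 2 or Dep 4, 5 without HiT 2, and 1 was lower without HiT 1. In shares, 22.9% of the subunits were higher and 8.57% lower, against 11.3 and 15.3% of all promoters. *Psmd8* and *Psmc1* of the regulatory particle were higher by 0.56 and 0.42, and *Psmb8*, a subunit of the immunoproteasome, was lower with 8.44 to 12.5 CPM in Dep and 15 to 24.6 CPM in HiT (-0.89 ± 0.20, FDR 0.00133).

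Glucocorticoid receptor targets had 6 of 23 members higher, 11 without HiT 3, and 0 lower (median 0.38). *Sgk1*, a kinase induced by the hormone, had 62.9, 48.3, 78.8 and 64.3 CPM in Dep and 30.6, 25.3, 33.2 and 24.9 CPM in HiT (1.16 ± 0.16, FDR 7.58e-06), with 50.9 CPM in Pre. *Cdkn1a*, the cell cycle inhibitor p21, had 137 to 278 and 56.8 to 131 CPM (1.20 ± 0.27, FDR 0.0017), and *Klf9* 102 to 150 and 77.6 to 95.5 CPM (0.53). Against Pre, 15 members were higher and 0 lower in Dep, and 7 were higher and 3 lower in HiT. Of 24 insulin, IGF, mTOR and myostatin genes 6 were higher, 1 without Dep 3 and 3 without HiT 2, and 2 lower, which became 1 to 4 when a library was left out. In the clock 5 of 18 genes were higher and 1 lower (median 0.21, and 0.05 without Dep 3), with the hour of HiT sampling not given. These are 27.8 and 5.56% of the clock genes, against 11.3 and 15.3% of all promoters. The activator *Arntl* had 50.2 to 66.6 and 33.9 to 39.5 CPM (0.62 ± 0.09, FDR 2.27e-05), *Cry2* was higher by 0.70, and the repressor *Bhlhe40* had 14.7 to 24.1 and 29.8 to 34.3 CPM (-0.79 ± 0.18, FDR 0.00175), below the Pre mean of 46.5 CPM in both groups.

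Genes that answer to stress moved in both directions. *Atf3*, a transcription factor of the stress response, was measured at 2 promoters. The downstream one (chr1:191183140-191183262) had 21.1, 30.4, 36.9 and 36.8 CPM in Dep and 12.8, 7.07, 10.7 and 9.31 CPM in HiT (1.65 ± 0.28, FDR 7.65e-05), with 17 CPM in Mid and 7.17 CPM in Pre. The upstream one (chr1:191217868-191218088) had 1.96, 18.8, 5.55 and 4.6 CPM in Dep and 24.2, 18.3, 36.8 and 15.6 CPM in HiT. There the estimate had the opposite sign but did not pass (-1.62 ± 0.73, FDR 0.105), and it passed without Dep 2 (FDR 0.0232). Both groups were above the 0.223 CPM of Pre at the upstream promoter, by 5.11 in Dep (FDR 0.000359) and 6.74 in HiT (FDR 1.2e-05). The study names a promoter of *Atf3* as torpor-specific and as raised by torpor deprivation, and the coordinate it gives is that of this upstream one. It also calls the promoter canonical and places the other one, without significant change, upstream of it. Its coordinate and its description thus point to different promoters. At the upstream promoter Mid had 2.16 CPM here, and Dep over Mid was 1.84, which did not pass (FDR 0.112). At the downstream promoter Dep over Mid was 0.88 and passed (FDR 0.0427). Of 21 immediate early genes 6 were lower, 3 without Dep 4, and 2 higher, 1 to 4 when a library was left out. The shares were 28.6% lower and 9.52% higher, against 15.3 and 11.3% of all promoters. *Fos* had 1.77 to 5.83 and 6.48 to 10.6 CPM (-1.25 ± 0.32, FDR 0.00444), *Junb* 7.53 to 9.90 and 16.3 to 19.2 CPM (-1.02), and *Ier3* 10.5 to 15.8 and 16.2 to 22.5 CPM (-0.69). Against Pre, 9 members were higher in Dep and 15 in HiT, with 0 lower in either (1 in Dep without Dep 1).

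In the ATF4 stress response 5 of 15 members were higher and 3 lower (median 0.48, and 0.11 without Dep 3). The lower ones were enzymes of amino acid and one-carbon synthesis, namely *Psat1* with 4.45 to 6.22 CPM in Dep and 11.7 to 23.6 CPM in HiT (-1.76 ± 0.25, FDR 8.58e-06), *Mthfd2* with 2.72 to 3.99 and 7.31 to 12 CPM (-1.59), and *Aldh18a1* with 2.37 to 4.59 and 7.47 to 9.89 CPM (-1.31). All 3 were at the Pre level in Dep, where the means were 4.68, 3.36 and 3.54 CPM. *Ppp1r15a*, which reverses the block of translation, was higher with 60.2 to 73.3 and 27.2 to 41.9 CPM (0.99), and so was *Vldlr*, a lipoprotein receptor (0.57). Among 22 NRF2, heme oxygenase and metallothionein genes 7 were higher and 1 lower, 0 without Dep 2 or HiT 1 (median 0.37). *Srxn1*, which repairs oxidized peroxiredoxins, had 75.4, 96.2, 161 and 98.2 CPM in Dep and 45.2, 40.1, 43.3 and 20.7 CPM in HiT (1.53 ± 0.28, FDR 0.000166), and *Txnrd1*, *Nqo1* and *Sod1* were higher by 0.62, 0.64 and 0.39. In the response to hypoxia and vascular growth 6 of 16 were higher and 3 lower (median 0.33), but 3 were higher without Dep 3, Dep 4 or HiT 2, and 1 was lower without Dep 4, HiT 1 or HiT 4. *Egln3*, an oxygen-sensing hydroxylase, had 127 to 181 and 48.3 to 71.6 CPM (1.40 ± 0.15, FDR 2.32e-07), *Vegfa* 274 to 315 and 149 to 195 CPM (0.80), and *Angpt1*, a ligand that steadies vessels, 4.59 to 6.04 and 9.44 to 13.9 CPM (-1.20).

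**Figure D4:**
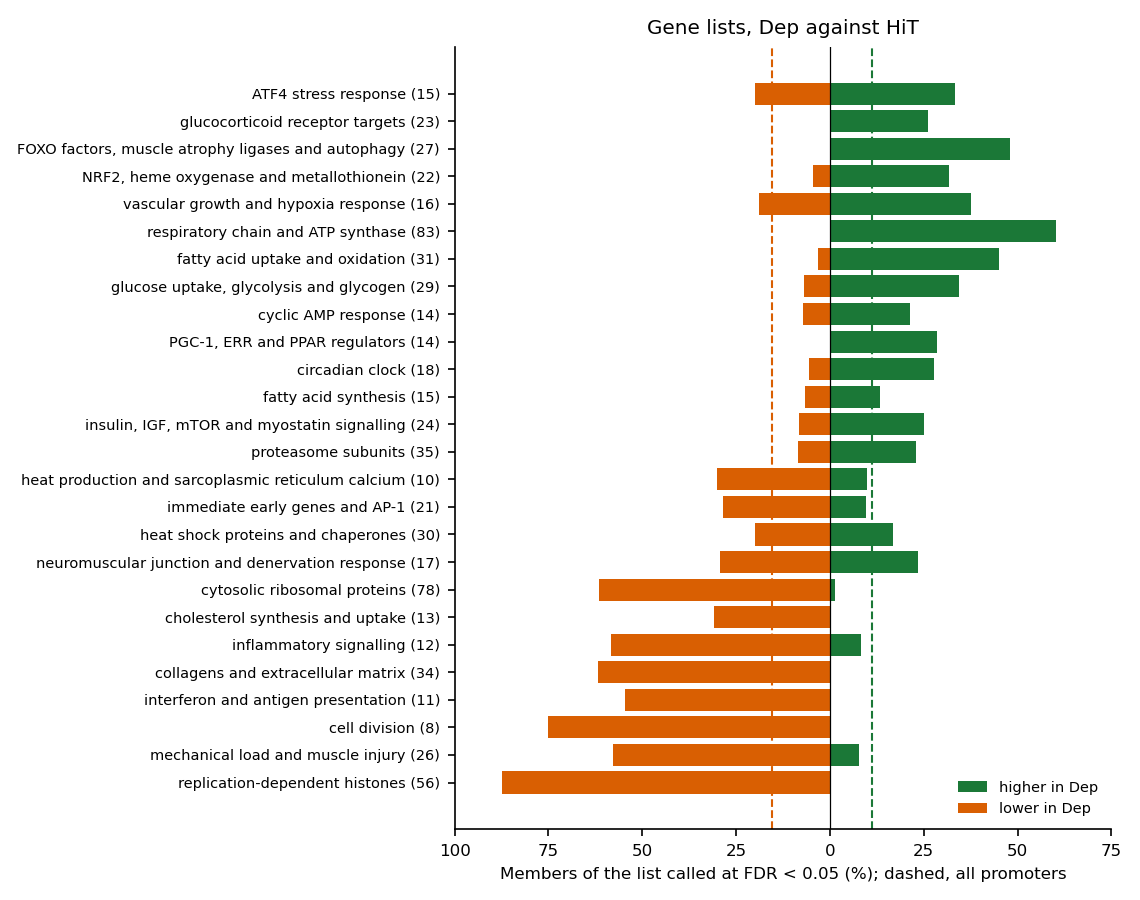
Share of the members of each gene list that passed at FDR below 0.05, higher in Dep to the right in green and lower in Dep to the left in orange, in percent, with the number of members in brackets and dashed lines at the shares over all promoters, 11.3% and 15.3%. Respiratory chain genes reach 60.2% on the right, and replication-dependent histones 87.5%, extracellular matrix genes 61.8% and ribosomal protein genes 61.5% on the left. Each member stands at its strongest promoter, whereas the dashed lines cover all clusters.

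By the same rule the largest differences toward HiT were those of *Mybph*, *Arg1* and *Tnc*. *Mybph*, myosin-binding protein H of the thick filament, had 2.87, 3.22, 0.495 and 1.97 CPM in Dep 1 to 4 and 91.1, 110, 102 and 91.3 CPM in HiT 1 to 4 (-5.54 ± 0.76, FDR 6.48e-06). *Tnc*, the matrix protein tenascin C laid down in loaded or injured tissue, had 4.53, 3.35, 2.76 and 3.03 CPM in Dep and 142, 130, 62.3 and 131 CPM in HiT (-5.08 ± 0.37, FDR 6.05e-10). The Dep means of 2.14 and 3.42 CPM were below the Pre means of 2.95 and 6.03 CPM, but neither difference passed (FDR 0.676 and 0.0792). Every HiT library was far above these means. *Arg1*, arginase (chr10:24927396-24927542), had 0, 0.735, 0.0707 and 0.253 CPM in Dep, which is 23 tags in all 4 libraries, and 15.9, 9.13, 5.0 and 7.75 CPM in HiT (-5.20 ± 1.43, FDR 0.00798).

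These are among 26 genes known to answer to mechanical load and muscle injury, of which 15 were lower in Dep and 2 higher (median -0.92). *Ankrd1*, a stretch-sensing titin partner, had 62.0, 120, 63.1 and 68.8 CPM in Dep and 605, 665, 550 and 510 CPM in HiT, a 7.42-fold difference (-2.89 ± 0.19, FDR 1.82e-10). *Timp1*, an inhibitor of matrix proteases, had 1.31 to 2.07 and 9.85 to 17.7 CPM (-3.07), and *Xirp2*, an actin-binding protein of sarcomeres under repair, 826 to 951 and 1340 to 2250 CPM (-1.02). *Ankrd23* was higher in Dep by 0.38 (FDR 0.01) and *Xirp1* by 0.57 (FDR 0.0489), the latter passing in 2 of 8 fits without a library. Against Pre, 6 of the 26 were higher and 2 lower in Dep (median 0.16), and 21 were higher and 0 lower in HiT (median 1.19).

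Collagens and other genes of the extracellular matrix were lower in Dep for 21 of 34 members and higher for 0 (median -0.88, and -0.94 without Dep 1). *Col6a3*, a chain of the microfibrils around fibers, had 23.4, 20.5, 22.3 and 15.4 CPM in Dep and 92.9, 87.3, 49.5 and 92.3 CPM in HiT (-1.98 ± 0.23, FDR 6.06e-07). *Loxl1*, a crosslinker of elastin, had 17.1 to 25.8 and 49.2 to 82.5 CPM (-1.64), and *Serpinh1*, the chaperone of collagen, 19 to 22.5 and 36.8 to 55.9 CPM (-1.23). HiT 3 was the lowest HiT library for all 3, still above every Dep library. Further genes of matrix turnover, outside this list, were the metalloprotease *Adam12* (0.367 to 1.06 and 7.47 to 13.5 CPM, -3.98), the protease *Mmp19* (0.657 to 1.56 and 7.66 to 17.2 CPM, -3.63) and the secreted *Cthrc1* (1.34 to 2.34 and 9.66 to 34.2 CPM, -3.53). Markers of the fibro-adipogenic progenitors, the matrix-forming cells of muscle, summed to 1550 to 2220 CPM in Dep and 1600 to 3470 CPM in HiT, and 1 of these 4 was called, 2 without Dep 1 or HiT 3, with *Pi16* lower (-0.73 ± 0.17, FDR 0.00197). The part of cell numbers in the matrix genes was not tested. Against Pre, 3 matrix members were higher and 3 lower in Dep (median -0.14), 2 and 4 without Dep 1 (median -0.25), and 21 were higher and 0 lower in HiT (median 0.67).

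All 9 macrophage markers in the table were lower in Dep (median -2.03), and all 9 were without Dep 1. They summed to 135, 95.4, 86.0 and 65.8 CPM in Dep 1 to 4 and 433, 329, 203 and 320 CPM in HiT 1 to 4, against means of 91.4 in Pre, 88.9 in Mid, 98.2 in Post and 107 in Fed. The HiT libraries were thus above every other group mean. *Cd68*, a lysosomal protein of phagocytes, had 2.37 to 4.87 CPM in Dep and 12.8 to 23.7 CPM in HiT (-2.51 ± 0.27, FDR 3.32e-07), and the complement chains *C1qa* and *C1qb* had differences of -2.27 and -2.03. *Lyz2*, lysozyme, had 56.0, 29.9, 25 and 17.3 CPM in Dep and 189, 125, 79.8 and 139 CPM in HiT (-2.05 ± 0.27, FDR 4.16e-06). *Aif1*, another macrophage protein, had 0.0707 to 1.01 and 2.46 to 9.10 CPM (-3.50).

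Antigen presentation and cytokine signals lay on the same side. Of 11 interferon and antigen presentation genes 6 were lower and 0 higher (median -0.89), led by the class II genes *H2-Ab1* with 9.95 to 21.2 and 58.3 to 130 CPM (-2.58 ± 0.30, FDR 6.34e-07), *H2-Aa* (-2.56) and *H2-Eb1* (-2.49) and by their invariant chain *Cd74* with 21.2 to 58.8 and 121 to 283 CPM (-2.17). Of 12 inflammatory genes 7 were lower and 1, *Nfkbia*, higher (median -0.60), the latter not so without Dep 2, 3 or 4 or HiT 2 or 4. *Ccl2*, which draws monocytes into tissue, had 1.43, 1.65, 1.41 and 1.21 CPM in Dep and 21.6, 22.2, 23.5 and 20 CPM in HiT (-3.93 ± 0.66, FDR 7.41e-05). *Socs3*, the feedback inhibitor of cytokine receptors, had 1.82 to 3.36 and 9.69 to 20.2 CPM (-2.39), *Ccl9* 4.04 to 9.96 and 26.2 to 50 CPM (-2.39), the chemokine *Cxcl14* 81.3 to 103 and 226 to 295 CPM (-1.45), and the factor *Stat3* 44.4 to 47.0 and 60.9 to 91.0 CPM (-0.73).

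Replication-dependent histone genes, which are transcribed in S phase, were lower in Dep for 49 of 56 members, 87.5% against 15.3% of all promoters, and higher for 0 (median -2.02). In this list Dep 1 mattered for the size, since without it 52 were lower at a median of -3.46. *Hist1h2ac* had 28.5, 14.8, 11.8 and 13.8 CPM in Dep and 68.1, 69.9, 36.8 and 64.7 CPM in HiT (-1.8 ± 0.24, FDR 3.66e-06). *Hist1h4b* had 5.81 CPM in Dep 1 and 0.808 to 1.27 CPM in Dep 2 to 4, against 9.36 to 25 CPM in HiT (-3.12), and *Hist1h4a* (-2.91) and *Hist1h2bg* (-2.01) had the same order of libraries at their ends, with Dep 1 the highest Dep and HiT 3 the lowest HiT library. Histone genes have near-identical copies, so that the member a tag was assigned to is uncertain. Of 8 cell division genes 6 were lower and 0 higher (median -0.92). *Ccna2*, the cyclin of S and G2 phase, had 1.77, 0.138, 0.0707 and 0.101 CPM in Dep and 9.44, 8.07, 3.98 and 9.01 CPM in HiT (-3.83 ± 0.85, FDR 0.00149, and -6.17 without Dep 1). *Birc5*, survivin, changed likewise (-3.71, and -5.84 without Dep 1), as did *Cdc20*, an activator of the anaphase ubiquitin ligase (-3.80, and -4.70 without Dep 1), and the replication helicase subunit *Mcm6* had 9.68 to 11.7 and 16.7 to 25.7 CPM (-1.07). Against Pre, 21 histone genes were higher and 1 lower in Dep (median 0.80) and 49 higher and 0 lower in HiT (median 3.22). The rise over Pre in Dep rested on Dep 1, without which 0 histone genes were higher and 1 lower (median -0.16).

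**Figure D5:**
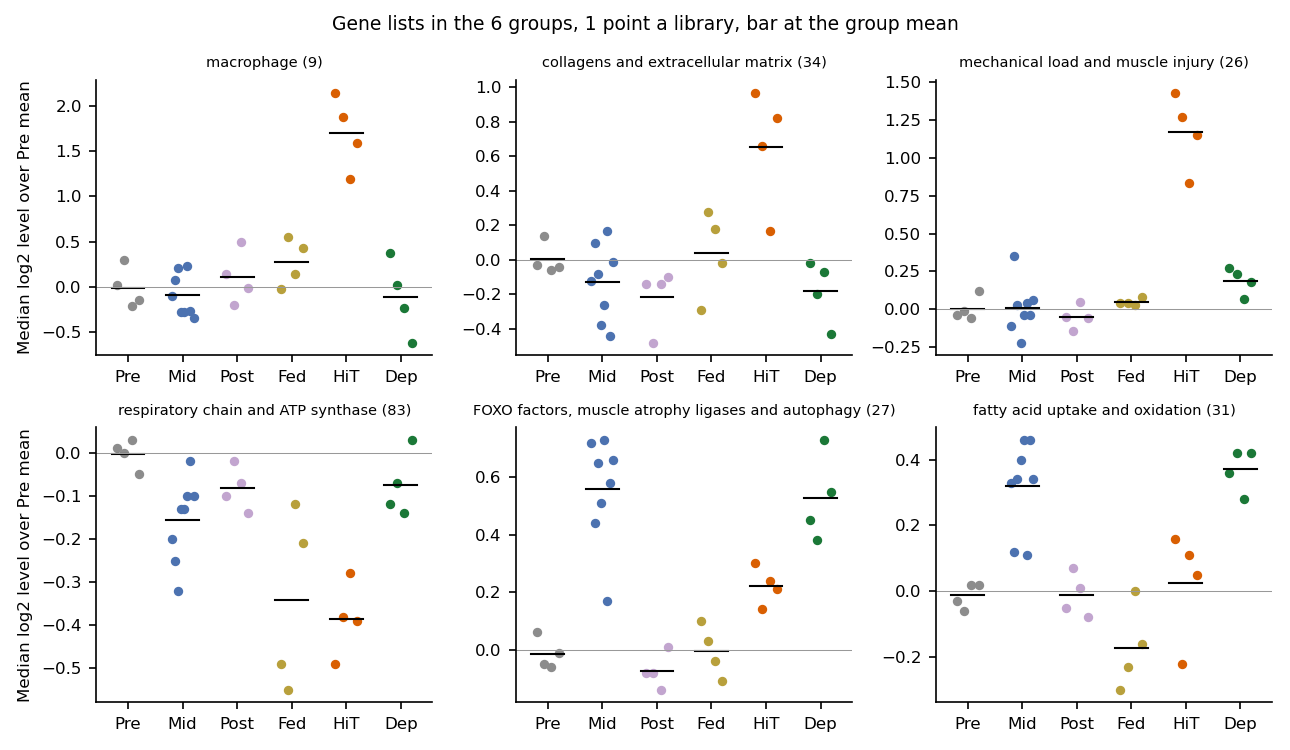
Median log2 level over the Pre mean of the members of 6 gene lists (number of members in brackets), with 1 point per library and a bar at the mean of each of the 6 groups. HiT stands above all other groups for macrophage, matrix and load genes, where the list medians of HiT against Pre were 1.8, 0.67 and 1.19, and lowest with Fed for the respiratory chain (-0.38), while Dep and Mid lie together for the FOXO and fatty acid lists.

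Cytosolic ribosomal protein genes were lower in Dep for 48 of 78 members and higher for 1, by small amounts (median -0.27). *Rps28* had 26.9 to 35.5 and 38.7 to 56.2 CPM (-0.66), *Rpl32* 46.0 to 47.9 and 58.7 to 75.6 CPM (-0.51 ± 0.08, FDR 2.31e-05) and *Rpl13* 89.6 to 104 and 116 to 135 CPM (-0.40). The member that was higher, *Rpl3l*, is the muscle-specific form of Rpl3 (72.8 to 90.1 and 66.9 to 70.5 CPM, 0.31). The median was -0.28 with library size alone, when 0 were higher and 3 lower. Without HiT 1 the number lower was 28, and 24 members stayed lower in all 8 fits without a library. Against Pre, 3 were higher and 8 lower in Dep, the latter 3 without Dep 1, and 24 were higher and 1 lower in HiT, where library size alone gave 1 in each direction.

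Of 10 genes of heat production and calcium cycling 3 were lower and 1 higher (*Slc25a4*), 2 without Dep 3 and 3 without HiT 3. *Sln*, sarcolipin, which uncouples the calcium pump of muscle from transport so that it gives heat, had 120, 122, 74.3 and 143 CPM in Dep and 294, 241, 318 and 225 CPM in HiT (-1.23 ± 0.27, FDR 0.00134). The mice of the warm group thus had the higher level of this thermogenic gene. Against the Pre mean of 211 CPM, Dep was lower (-0.88, FDR 0.0173) and HiT did not pass (0.35, FDR 0.326). Mid, Post and Fed had means of 155, 163 and 121 CPM. *Casq2*, calsequestrin of slow fibers, had 58.8 to 85.3 and 93.2 to 145 CPM (-0.64 ± 0.15, FDR 0.0021). Neither of the cold-inducible RNA-binding proteins passed. *Cirbp* had 48.0 to 57.2 CPM in Dep and 47.8 to 54.8 CPM in HiT (0.06 ± 0.11, FDR 0.75), and *Rbm3* had 33.8 to 38.5 and 24.4 to 36.9 CPM (0.27 ± 0.11, FDR 0.068), which did pass under DESeq2 (0.0436), with upper-quartile scaling (0.0497) and without HiT 1 (0.00842). Of 30 heat shock proteins and chaperones 5 were higher, 3 without Dep 4 or HiT 2, and 6 lower. *Hspb1*, a small heat shock protein, had 372, 387, 331 and 461 CPM in Dep and 1030, 885, 690 and 677 CPM in HiT (-1.08 ± 0.15, FDR 5.37e-06), both above the 190 CPM of Pre, and its relative *Hspb6* had 1080 to 1430 and 875 to 912 CPM (0.52).

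Regulators of myogenesis and of the nerve-muscle contact went both ways, with 4 of 17 neuromuscular junction and denervation genes higher and 5 lower, 3 without Dep 3. That is 23.5 and 29.4% of the members, against 11.3 and 15.3% of all promoters. *Myog*, a myogenic factor that rises after denervation, had 7.47, 8.77, 4.70 and 5.25 CPM in Dep and 29.8, 25.4, 26.1 and 29.9 CPM in HiT (-2.09 ± 0.17, FDR 5.86e-09), where Dep was at the Pre level of 6.65 CPM. *Hdac9*, a repressor of MEF2 factors, had 1.13 to 3.17 and 6.55 to 8.72 CPM (-1.98), *Musk*, the receptor kinase of the synapse, 36.3 to 52.8 and 16.7 to 24.6 CPM (0.95 ± 0.15, FDR 2.3e-05), and *Mef2c* 334 to 455 and 272 to 310 CPM (0.48). *Myod1*, the only satellite cell marker of the 4 listed that was in the table, had 4.52 to 7.53 and 11.1 to 16.2 CPM (-1.13 ± 0.35, FDR 0.0174, and 0.06 without Dep 3). Its mean was 18.8 CPM in Pre and 4.18 CPM in Mid. Against Pre, *Myod1* was lower in Dep (-1.54, called) and not called in HiT (-0.41). Of the remaining cell types, 0 of 7 adipocyte, 0 of 5 nerve and 0 of 3 smooth muscle markers passed, 1 of 7 endothelial (*Cldn5*, not without Dep 4 or HiT 4) and 1 of 6 tendon markers (*Scx*, not without Dep 4, HiT 1 or HiT 2) were lower, and none of 5 lymphocyte markers was in the table.

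Signals through cyclic nucleotides had members among the largest differences. *Pde4d*, which breaks down cyclic AMP, had 81.1, 145, 148 and 130 CPM in Dep and 35.0, 23.1, 49.0 and 25 CPM in HiT at its strongest promoter (1.93 ± 0.43, FDR 0.00147), with 4.6 CPM in Pre. *Prkg1*, the kinase activated by cyclic GMP, had 3.58, 1.93, 0.283 and 1.31 CPM in Dep and 33.2, 36.2, 26.3 and 29.8 CPM in HiT (-4.14 ± 0.47, FDR 5.18e-07), on either side of the 9.28 CPM of Pre. In the cyclic AMP list 3 of 14 were higher, namely *Ppargc1a*, *Pde4d* and *Crem*, and 1 lower, *Fos*. That is 21.4 and 7.14%, against 11.3 and 15.3% of all promoters. *Ampd3*, the AMP deaminase, had 58.2, 45.6, 50.7 and 58.2 CPM in Dep and 19.1, 12.8, 17.8 and 14.8 CPM in HiT (1.72 ± 0.27, FDR 3.43e-05). *Aifm2*, which protects membranes from lipid peroxidation, had 4.56 to 12 and 1.16 to 2.95 CPM (2.07), and the anion exchanger *Slc4a3* had 11 to 14.3 and 2.67 to 4.81 CPM (1.67). *Lrch1* (chr14:74899531-74900096) had 16.3 to 30.6 and 4.18 to 5.70 CPM (2.22 ± 0.34, FDR 2.36e-05), against 1.31 CPM in Pre. Also among the first 12 were *Samd4*, an RNA-binding repressor of translation (1.84), the keratin *Krt80* (1.81), the potassium channel subunit *Lrrc52* (1.72), *Fam107a* (1.69) and the pseudogene *Gm6768* (1.79), whose FDR was 0.14 without Dep 3.

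Alternative promoters of the same gene could differ in direction, as they did in 10 of the 59 genes with more than 1 called promoter. *Dnajb5*, a co-chaperone, had 92.4 to 120 CPM in Dep and 53.4 to 79.7 CPM in HiT at one promoter (chr4:42952516-42953401, 0.76 ± 0.14, FDR 0.000146) and 5.27 to 7.03 and 11.5 to 14.8 CPM at another (chr4:42950353-42950758, -1.05 ± 0.21, FDR 0.000574). At *Plec*, the cytoskeletal linker plectin, the promoter at chr15:76200395-76200852 was higher (0.33, FDR 0.000608) and those at chr15:76229358-76229598 (-0.62, FDR 0.00015) and chr15:76205815-76206409 (-0.82, FDR 3.66e-06) were lower. *Tpm3*, the slow tropomyosin, was higher at its main promoter with 5100 to 7190 and 3690 to 5990 CPM (0.50 ± 0.14, FDR 0.00822) and lower at an internal one with 25.4 to 36.7 and 41.0 to 67.5 CPM (-0.82 ± 0.13, FDR 3.33e-05). For *Pde4d*, a pair of weaker promoters was lower (-0.41 and -0.45), with FDRs of 0.0485 and 0.0404 that passed in 2 and 1 of the 8 fits without a library.

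Clusters away from any annotated 5′ end made up 13.6% of the promoters higher in Dep (165) and 3.82% of the lower (63), against 11% of all tested, and clusters inside *Myh4* were among the former. The following were picked after their values were seen, outside the rule for naming genes. A cluster between genes (chr17:87184887-87185196) had 52.5, 61.8, 66.7 and 70.9 CPM in Dep and 10.7, 13.8, 19 and 10.9 CPM in HiT (2.21 ± 0.19, FDR 1.04e-08), and its Pre mean of 53.9 CPM was on the side of Dep. A cluster in an exon of *Ccdc180* (chr4:45948693-45948814) had 0.0459 to 0.152 CPM in Dep and 8.75 to 19.8 CPM in HiT (-6.93 ± 0.78, FDR 4.89e-07), and one in an intron of *Slc6a19* (chr13:73684556-73684840) had 0.0707 to 0.367 and 9.13 to 11.5 CPM (-5.82 ± 0.52, FDR 2.47e-08). In Pre both were near the Dep level, at 0.126 and 0.132 CPM.

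The architecture of the promoters was compared as a description. Those higher in Dep had a median width of 333 bp and a median level of 33.0 CPM, those lower had 254 bp and 18.5 CPM, and all promoters had 281 bp and 17.7 CPM. A RefSeq window that held the peak was found for 519 of the higher, 779 of the lower and 4929 of all promoters. The TATA box letters, as shown for *Myh4* and *Mybph*, were in 8.29% of the windows higher in Dep, 12.8% of the lower and 8.16% of all. The cyclic AMP response element TGACGTCA was in 5.78, 2.70 and 3.88%, and its first letters TGACG, which include it, were in 38.3, 31.1 and 35.5%. The E-box was in 11, 8.6 and 10.7%, the AP-1 letters in 6.17, 4.24 and 4.32%, and the heat shock element in 5.20, 7.06 and 5.13%. Median GC content was 60.7, 61.3 and 62.3%.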

How the data were processed

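Tags of soleus nAnT-iCAGE libraries (5 μg of total RNA each, 1 library per mouse) were trimmed, mapped to mm10 with bwa and hisat2 and clustered with PromoterPipeline by the authors, who deposited the count of tags per cluster and library without normalization. The deposited TPM values are these counts per 1000000 mapped tags and served only to find library totals, of which 94.7 to 95.6% in the Dep and HiT libraries lay in clusters. The study tested its TPM values in edgeR, whereas counts were used here.

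Clusters took the gene whose GENCODE M21 5′ end lay within 500 bp of the peak on the same strand. The 28 libraries of the first run were fitted together in edgeR 4.0.16 (R 4.3.3; TMM, quasi-likelihood F test, group as only term, common dispersion 0.0377), with Benjamini-Hochberg adjustment over 10776 clusters. Distances followed limma 3.58.1 (prior count 2). A list member was represented by its strongest promoter. Members and lists were chosen with earlier results of these data known. Named were the 12 genes per direction with the largest fold change among called, non-overlapping, annotated promoters of at least 5 CPM, up to 4 list members with the smallest FDR and those moving the other way, *Atf3*, *Ppargc1a*, *Rbm3*, *Cirbp*, *Sln*, *Ucp3* and the adult myosins, and up to 4 genes with opposite promoters. In simulated counts 90.5% of 200 promoters with a log2 fold change of 1 were recovered, with 7 false calls among 10772. Alternatives were DESeq2 1.42.0, the likelihood ratio test, other scalings and filters, the 8 libraries alone, a fit with the replicate numbers blocked, and 8 fits that each drop 1 library. Dep against Pre and Mid without Dep 1 was added after seeing the data. No pair of libraries within a group agreed within sampling noise (lowest chi-square per promoter 20.6). Neither randomization nor blinding was used in the study. A few list members that the naming rule would include are not reported here.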

Additional observations from a re-analysis of the deposited data

Results flagged for a closer look

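In 313 groups of 4 libraries behind the values above, 26 had a highest or lowest library far from the other 3, where chance gives about 1 in 20. Dep 1 was the highest Dep library for *Camp* (60.5 CPM), *S100a8* (26.6), *Ngp* (25.6), *S100a9* (20), *Slc4a1* (16.8), *Hist1h2bg* (28.3), *Hist1h4a* (6.60), *Hist1h4b* (5.81), *Birc5* (2.11), *Ccna2* (1.77) and the summed neutrophil (153) and fibro-adipogenic progenitor markers (2220), and the lowest for *Bnip3* (937) and the summed smooth muscle markers (59.9). HiT 3 was the lowest HiT library for *Tnc* (62.3 CPM), *Col6a3* (49.5), *Hist1h2ac* (36.8), *Hist1h2bg* (34.0), *Hist1h4b* (9.36) and *Hist1h4a* (8.34), and the highest for *Slc25a4* (5720) and *Lpin1* (18.3). The others were *Ankrd1* in Dep 2 (120 CPM, the highest), *Psmc1* in Dep 3 (46.4, the lowest), *Ppara* in HiT 1 (28.3, the lowest) and *S100a9* in HiT 1 (0.340, the highest).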

How the results depend on the processing

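Of 140 named promoters, 102 kept their direction and their side of the threshold under all 15 alternatives. Scaling by library size without TMM changed most: 397 promoters were higher in Dep than in HiT and 711 lower, 1444 were called from Pre to Dep, 1974 from Pre to HiT and 9 between Dep and Mid, and 24 named promoters lost their call. Between Dep and Mid, DESeq2 called 479, the likelihood ratio test 343 and the fit without Dep 1 125, the last chosen after seeing the data. DESeq2 gave 1439 higher and 1637 lower in Dep than in HiT, the likelihood ratio test 1194 and 1635, upper-quartile scaling 1292 and 1540, filterByExpr 1211 and 1650, and the 8 libraries alone 1123 and 1256. Leaving out 1 library gave 923 to 1431 higher and 1138 to 1597 lower, and differences in distance of 0.597 to 0.840. The cause of these changes was not tested. Without Dep 1 the estimate turned to -4.44 for *Camp*, 0 for *Ngp*, -0.13 for *S100a9* and -0.2 for *Slc4a1*, while leaving out others gave up to 7.78, 10.89, 5.12 and 3.35. *Ucp3* spanned -0.12 to 0.14, the latter without HiT 4, and 1 weak promoter of *Myh7* spanned -0.09, without Dep 4, to 0.49. The replicate numbers do not pair the mice, since own-number correlations were 0.113, -0.11, -0.112 and 0.478. With the replicate block 1187 were higher and 1618 lower, and the upstream promoter of *Atf3* passed (-2.19). With 4 mice a group, promoters of a few tags and differences well below a log2 fold change of 1 can be missed.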
